A study of Mus musculus with 22 samples.

Results

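The Iroquois homeobox genes are a family of 6 transcription factor genes in the mouse, Irx1 to Irx6, and their signals were examined in 22 single retinal neurons. The members were taken by gene name alone, and each was represented by 1 probe set, so they make up 6 of the 18194 genes named on the array. Expression was measured in 13 ganglion cells, which send their axons to the brain, in 6 amacrine cells, inhibitory interneurons of the retina, and in 3 photoreceptors. Among the ganglion cells, 3 were taken at E12.5, 1 at E13.5, 2 at E14.5, 3 at E15.5 and 4 at P0, where E is a day of embryonic life and P0 the day of birth. Of the amacrine cells, 1 was of E16.5 and 5 of P0, and of the photoreceptors, 2 were of P0 and 1 was an adult rod. The background strain CD1 is given for 9 of the 22 cells, and no mutation, transgene or treatment is named for any of them. Each cell was picked alone after papain dissociation, and its cDNA was amplified by PCR. The cells received their type names only after profiling. No animal is named, so cells of a stage may share one.

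Iroquois proteins carry an atypical homeodomain of the TALE class, which binds DNA, and a short Iro box that sets the family apart. The genes lie in a pair of clusters, which arose by duplication, and genes of a cluster often share expression domains because they share enhancers. In the developing nervous system the family is known for dividing the neural plate and tube into territories. In the vertebrate retina its members are known from ganglion cells and from cone bipolar cells. Irx5 is needed for some cone bipolar types in the mouse, Irx6 separates others, and Irx4 acts on the guidance of ganglion cell axons in the chick.

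In the RefSeq gene order of the mouse, Irx1, Irx2 and Irx4 follow each other in that order on chromosome 13, and Irx3, Irx5 and Irx6 on chromosome 8. Crnde, a long noncoding RNA gene, lies between Irx3 and Irx5 and is the immediate neighbour of Irx5. The results below turn on Irx2 of the first cluster and on Irx3, Irx5 and Crnde of the second. RefSeq promoter sequences were matched for Irx2, Irx3, Irx4 and Crnde, and the 250 bases before the start are printed for the 3 of them that the results turn on, in build GRCm38.p6. Capitals mark the GC box GGGCGG, the CCAAT box and the homeodomain core TAAT, on either strand. The Irx2 window is chr13:72628570-72628819 on the plus strand, that of Irx3 is chr8:91801655-91801904 on the minus strand, and that of Crnde is chr8:92356121-92356370, also on the minus strand.
Irx2: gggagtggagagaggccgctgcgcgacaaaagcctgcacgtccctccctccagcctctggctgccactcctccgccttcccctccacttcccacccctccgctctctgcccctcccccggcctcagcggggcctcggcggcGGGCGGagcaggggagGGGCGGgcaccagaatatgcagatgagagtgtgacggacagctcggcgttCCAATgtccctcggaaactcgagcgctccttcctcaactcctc
Irx3: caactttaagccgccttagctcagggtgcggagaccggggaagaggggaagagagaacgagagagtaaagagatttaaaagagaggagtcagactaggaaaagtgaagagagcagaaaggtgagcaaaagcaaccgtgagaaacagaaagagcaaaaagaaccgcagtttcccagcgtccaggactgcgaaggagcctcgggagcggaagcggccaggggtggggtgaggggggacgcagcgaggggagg
Crnde: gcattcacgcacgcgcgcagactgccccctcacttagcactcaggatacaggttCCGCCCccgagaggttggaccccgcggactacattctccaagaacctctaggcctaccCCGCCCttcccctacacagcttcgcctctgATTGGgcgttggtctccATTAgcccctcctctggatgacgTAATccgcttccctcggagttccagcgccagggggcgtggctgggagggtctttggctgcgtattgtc
The Irx2 window held 2 GC boxes and 1 CCAAT box, the Crnde window 2 GC boxes, 1 CCAAT box and 2 TAAT cores, and the Irx3 window none of these letters. Among 32851 promoter windows of equal length, 32.7% held GGGCGG, 33.8% CCAAT and 54.9% TAAT. The palindrome ACANNTGT, a sequence that Iroquois proteins are known to bind, was in none of the 3 windows and in 6.3% of all. The GC content was 68.4% for Irx2, 56.0% for Irx3 and 62.0% for Crnde, against a median of 52.4% over all windows.

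Signals are MAS5 intensities on a linear scale. Those under 200 were set to 200 before taking log2, so 7.64 is the lowest log2 value, and detection in a cell means a signal of at least 1000 (log2 9.97). Ganglion cells held 1518 to 4352 detected genes, amacrine cells 1928 to 4132 and photoreceptors 2235 to 3056. The types had been named from these same profiles, so the markers are given as a description. Of 11 ganglion markers, ganglion cells held 6 to 10, amacrine cells 0 to 4 and photoreceptors 1 or 2. Of 10 amacrine markers, amacrine cells held 4 to 6 and ganglion cells 1 or 2, and of 10 photoreceptor markers, photoreceptors held 7 to 10 and ganglion cells 0 or 1. Both ganglion cells of E14.5 also held 4 of 4 lens markers, that of E13.5 held 1, and the 5 ganglion cells from E14.5 and from E15.5 held 2 or 3 of 4 blood markers. Amacrine cell J6 of E16.5 and the adult rod had median signals over all probe sets of 197.7 and 192.1, whereas those of the other cells lay between 32.9 and 79.1.

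**Figure D1:**
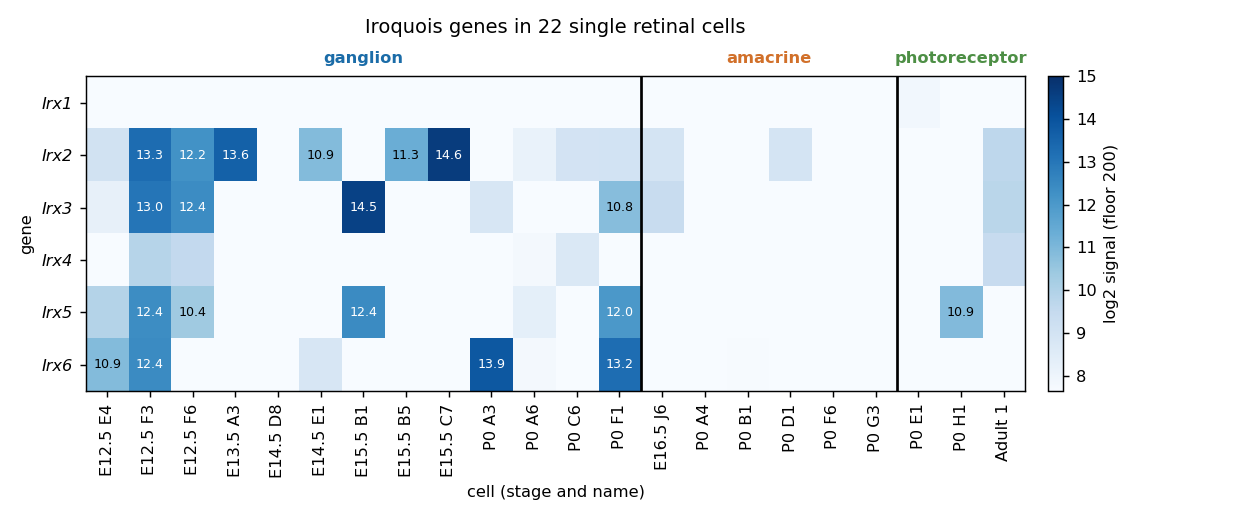
Log2 signal of the 6 Iroquois genes (rows) in the 22 cells (columns, by type, stage and cell name), with signals under 200 raised to 200. Numbers are printed where the signal reached 1000. Irx2, Irx3, Irx5 and Irx6 reached it in ganglion cells, no gene did in an amacrine cell, and Irx5 did in 1 photoreceptor.

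Irx2 was the member detected in the largest number of cells. In the ganglion cells of E12.5 its signal was 10048 in cell F3, 4763 in F6 and 535 in E4. It was 12548 in cell A3 of E13.5, and 1880 and 108 in cells E1 and D8 of E14.5. At E15.5 it was 25319 in cell C7, 2585.5 in B5 and 22.7 in B1. Irx2 was thus detected at each embryonic stage at which ganglion cells were taken, and at each of these stages with more than 1 cell at least 1 cell lacked it. At P0 its signal was 517 in cell F1, 507 in C6, 283 in A6 and 51.1 in A3, so it was detected in none of the 4. In the 6 amacrine cells it had a lowest value of 82.9, a median of 165.5 and a highest of 492.6, in D1. The photoreceptors were at 73.4 in E1, 96.7 in H1 and 809.5 in the adult rod. In the rod that signal was 4.2 times the median of its array, while the 6 detections in ganglion cells were 55.6 to 498.1 times theirs. Cell E1 of E14.5, 1 of those 6, also held 7 of 8 progenitor markers and the lens and blood markers, and their part in its Irx2 signal was not tested.

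Irx1 and Irx4, the neighbours of Irx2 on chromosome 13, were detected in no cell. Irx1 had signals of 2.0 to 230.6, with a median of 36.9, and exceeded the floor in photoreceptor E1 of P0 alone. Irx4 came nearest to detection in the ganglion cells F3 and F6 of E12.5, at 917 and 755, the pair that held both Irx2 and Irx3, while cell E4 of that stage was at 56.8. It was at 689 in the adult rod, where Irx2 and Irx3 lay at similar multiples of the array median, and at 410 in ganglion cell C6 of P0. With 0 of 13 ganglion cells detected, the exact binomial interval still allows a share of up to 24.7% for either gene, counting error only. That interval takes the cells as independent.

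Irx3 stood high in 4 ganglion cells. Its signal was 8362 in cell F3, 5453.5 in F6 and 300.2 in E4 of E12.5. At E15.5 it was 23059 in cell B1, and 129 and 9.1 in B5 and C7. At P0 it was 1812 in cell F1, 461 in A3, 28.8 in C6 and 16.3 in A6. The cell of E13.5 was at 132.1 and those of E14.5 at 67.4 and 11.2, so both stages lacked it. Among amacrine cells the 5 of P0 lay between 30.0 and 175.4, and J6 of E16.5 was at 676. The photoreceptors were at 76.9 and 103 at P0 and at 863 in the adult rod. J6 and the rod are the cells with the high array medians, and their Irx3 signals were 3.4 and 4.5 times those medians, against 34.6 to 474.5 times in the 4 ganglion cells. The part of the high medians in these 2 values was not tested.

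Irx5 was detected in the same 4 ganglion cells as Irx3 and in 1 photoreceptor. In the ganglion cells of E12.5 its signal was 5325 in F3, 1313 in F6 and 957, just under the threshold, in E4. At E15.5 it was 5473 in cell B1 and far under the floor in B5 and C7. At P0 it was 4207 in cell F1, 319 in A6, 87.6 in C6 and 18.2 in A3. It was at 23.4 in the cell of E13.5, and at 20.6 and 203 in those of E14.5. All 6 amacrine cells lay under the floor, between 7.8 and 72.6. Photoreceptor H1 of P0 was at 1919 while E1 was at 21.7 and the rod at 71.1. H1 also held 4 of 8 progenitor markers and 3 of 7 markers of Müller glia and astrocytes, against 0 of 8 and 0 of 7 in E1, and the part of these transcripts in its Irx5 signal was not tested.

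Irx6, at the end of the chromosome 8 cluster, had a pattern of its own. Its signal was 14913.5 in cell A3 and 9751.5 in cell F1 of P0, and 220.0 and 7.1 in A6 and C6. At E12.5 it was 5569 in F3, 1881.5 in E4 and 11.8 in F6. It was not detected at the stages between, with 135.5 at E13.5, 459 and 116 at E14.5, and 52.9 to 125.5 at E15.5. The amacrine cells ran from 8.8 to 206.3 with a median of 90.9, and the photoreceptors were at 4.1, 141 and 175. The cells with Irx6 were therefore found at the youngest and the oldest ganglion stage and at none in between.

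Bipolar cell markers were looked for because Irx5 and Irx6 are known from that cell type. Of 5 measured bipolar markers, ganglion cells held 0 or 1, amacrine cells 0 or 1 and photoreceptors 0 to 2. The 1 marker was Prkca, a protein kinase C of rod bipolar cells, and it was found in ganglion cells F6 of E12.5 and F1 of P0. The other 4 of these 5 markers were not detected in any ganglion cell. Further genes of bipolar cells that other retinal neurons also use were found more widely, Otx2 in 2 ganglion cells and Isl1 in 10.

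The combinations of Iroquois genes differed from one ganglion cell to the next. At least 1 gene was detected in 10 of 13 ganglion cells (76.9%), in 0 of 6 amacrine cells and in 1 of 3 photoreceptors. The lower exact binomial 95% limit was 46.2% for ganglion cells and the upper limit 45.9% for amacrine cells, counting error only. These limits take the cells as independent, though cells of a stage may share an animal. They are no test between the types, and the amacrine count depended on the threshold, as given below. No such count was made for other sets of genes, so these counts are given as a description. Cell F3 of E12.5 held Irx2, Irx3, Irx5 and Irx6, the largest combination. Cell F6 of E12.5 held Irx2, Irx3 and Irx5, cell F1 of P0 held Irx3, Irx5 and Irx6, and cell B1 of E15.5 held Irx3 and Irx5. Irx2 was the only gene detected in 4 cells, namely A3 of E13.5, E1 of E14.5, and B5 and C7 of E15.5. Irx6 was the only one in E4 of E12.5 and A3 of P0. No gene was detected in D8 of E14.5 or in A6 and C6 of P0. The 10 cells with a gene thus showed 6 different combinations, and 4 of them held genes of the chromosome 8 cluster together. All 3 cells of E12.5 held at least 1 gene, and 2 of the 4 cells of P0 did. Without both cells of E14.5, which held lens transcripts, 9 of 11 ganglion cells held at least 1 gene.

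Irx3 and Irx5 were found together in 4 of 4 ganglion cells with either gene. This pairing depended on the threshold. At a threshold of 2000, Irx3 and Irx5 were found together in F3 and B1, Irx3 without Irx5 in F6, and Irx5 without Irx3 in F1. At 500, Irx5 was also detected in E4 without Irx3. After quantile normalization F6 lost Irx5 and E4 gained it. The absence from amacrine cells depended on these choices too, since 1 of 6 amacrine cells held a gene at 500 (J6, with Irx3) and 1 of 6 after quantile normalization (D1, with Irx2). The adult rod held Irx2, Irx3 and Irx4 at 500, and photoreceptor H1 lost Irx5 at 2000. At the thresholds of 500, 1000 and 2000 the number of ganglion cells with at least 1 gene was 11, 10 and 8, and the number with at least 2 genes was 5, 4 and 4.

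The 4 ganglion cells with at least 2 Iroquois genes held 2476, 3494, 3609 and 4352 detected genes in all, the 6 with 1 held 1518 to 4137 (median 2837.5) and the 3 with none held 2293 to 3113 (median 3084). These ranges overlap. Progenitor markers, of which 8 were measured, numbered 0 to 3 in the 4 cells with at least 2 Iroquois genes and 0 to 7 in the other 9.

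**Figure D2:**
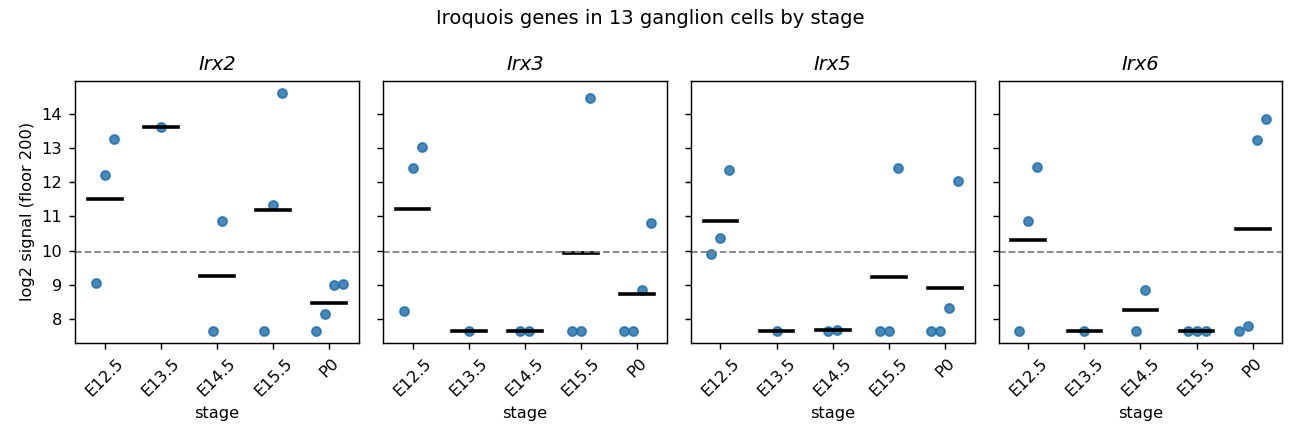
Log2 signal (signals under 200 raised to 200) of Irx2, Irx3, Irx5 and Irx6 in the 13 ganglion cells by stage. Points are cells, black bars are stage means, and the dashed line is a signal of 1000. Irx2 has its stage means over 11 at E12.5, E13.5 and E15.5 and its lowest, 8.45, at P0, while Irx6 has its highest, 10.64, at P0.

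Across stages of ganglion cells the members did not follow one course. The stage mean of log2 Irx2 was 11.52 ± 2.20 at E12.5 (SD, n = 3 cells), 13.62 at E13.5 (1 cell), 9.26 ± 2.29 at E14.5 (n = 2), 11.20 ± 3.49 at E15.5 (n = 3) and 8.45 ± 0.67 at P0 (n = 4). The order from high to low was E13.5, E12.5, E15.5, E14.5 and P0, and neighbours in that order overlapped in range except E13.5, whose single cell lay above all 3 of E12.5. The 4 cells of P0 lay within the range of the 2 of E14.5. Irx3 means were 11.22 ± 2.61 at E12.5, 7.64 at E13.5 and E14.5, 9.93 ± 3.95 at E15.5 and 8.74 ± 1.50 at P0. For Irx5 they were 10.88 ± 1.32, 7.64, 7.66, 9.24 ± 2.76 and 8.91 ± 2.11 in the same order of stages. The highest stage mean of both genes was that of E12.5, but cell B1 of E15.5 lay above all cells of E12.5. Its log2 value was 14.49 against 13.03 in F3 for Irx3, and 12.42 against 12.38 in F3 for Irx5. Irx6 means were 10.32 ± 2.45 at E12.5, 7.64 at E13.5, 8.24 ± 0.85 at E14.5, 7.64 at E15.5 and 10.64 ± 3.38 at P0. The stages form 1 sample each, so no test between them was made.

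Within P0, the only stage with all 3 types, Irx6 was detected in 2 of 4 ganglion cells, 0 of 5 amacrine cells and 0 of 2 photoreceptors. Irx3 was detected there in 1 of 4 ganglion cells and in no other cell, and Irx5 in 1 of 4 ganglion cells and 1 of 2 photoreceptors. The mean log2 values at P0 were 10.64 in ganglion and 7.65 in amacrine cells for Irx6, 8.74 against 7.64 for Irx3, 8.91 against 7.64 for Irx5 and 8.45 against 7.90 for Irx2. Ganglion and amacrine cells overlapped in range for each of these genes, and with 1 sample on each side these differences carry no p-value.

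**Figure D3:**
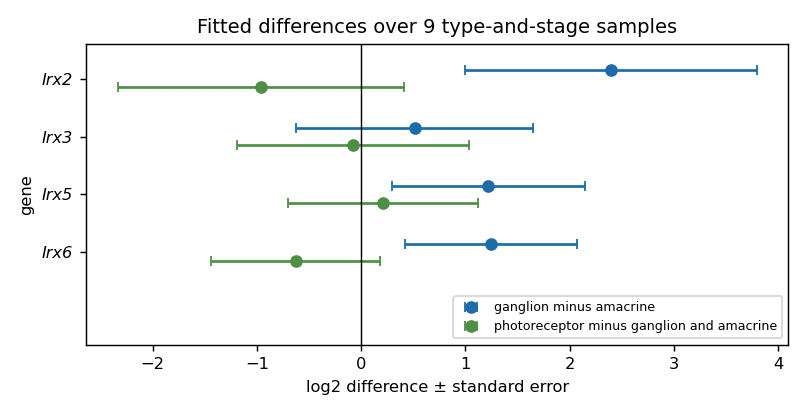
Fitted log2 differences of the 4 tested Iroquois genes, with standard errors, over 5 ganglion, 2 amacrine and 2 photoreceptor samples. Ganglion minus amacrine differences run from 0.51 to 2.39 and the photoreceptor differences from -0.96 to 0.20, and no adjusted p passed 0.05.

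The contrast of ganglion with amacrine cells asked which genes separate these neurons. Cells of a type and stage were averaged into 1 sample, giving 5 ganglion, 2 amacrine and 2 photoreceptor samples. Irx2, Irx3, Irx5 and Irx6 passed the filter of detection in at least 3 of 22 cells, and Irx1 and Irx4 did not. The 4 were higher on average in ganglion cells without passing the test in limma. Irx2 had means of 10.81 and 8.42 (log2 difference 2.39 ± 1.40, standard error, 95% interval -0.35 to 5.14, adjusted p = 0.999). Irx6 was at 8.90 and 7.65 (1.25 ± 0.82, interval -0.37 to 2.86), Irx5 at 8.87 and 7.64 (1.22 ± 0.93, interval -0.60 to 3.04) and Irx3 at 9.04 and 8.52 (0.51 ± 1.14, interval -1.71 to 2.74), with the same adjusted p. The lowest unadjusted p of the 4 was 0.0873, for Irx2. Of the 4 tested members 0 passed, 0 had an unadjusted p under 0.05 and 0 passed with gene-wise variances (an ordinary linear model), against 5 of 7184 genes passing in limma (0.0696%), of which 3 were higher (0.0418%) and 2 lower (0.0278%) in ganglion cells, and 3.94% with an unadjusted p under 0.05. Each interval spans 0 and reaches over 2 log2 units above it, and that of Irx3 also reaches well below 0, so the test does not show that the types are alike. For Irx5 and Irx6 the amacrine mean lies at or within 0.01 of the floor, so the size of their difference depends on that floor.

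Each of the 4 tested members was detected in at least 4 of 13 ganglion cells and in no amacrine cell, as were 452 of the 7184 tested genes (6.29%). The filter asks for detection in 3 cells, so a gene absent from amacrine cells passes it only through the other types, and this count is given as a description.

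Photoreceptors were set against the average of the ganglion and amacrine means. Irx2 was at -0.96 ± 1.37 (adjusted p = 0.761 in limma), Irx6 at -0.63 ± 0.81 (0.732), Irx5 at 0.20 ± 0.91 (0.938) and Irx3 at -0.08 ± 1.12 (0.981). Here 0 of 4 members passed in limma, 0 had an unadjusted p under 0.05 and 0 passed with gene-wise variances (an ordinary linear model), against 152 of 7184 genes (2.12%) in limma, 1.50% higher and 0.612% lower in photoreceptors, and 12.2% with an unadjusted p under 0.05. The median over all tested genes was -0.57 in this contrast and -0.06 in the first. The sign of Irx5 rested on photoreceptor H1 of P0, without which it was at -0.61. That of Irx3 turned in several fits that left out 1 cell or sample, among them the fit without amacrine cell J6 (0.36).

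**Figure D4:**
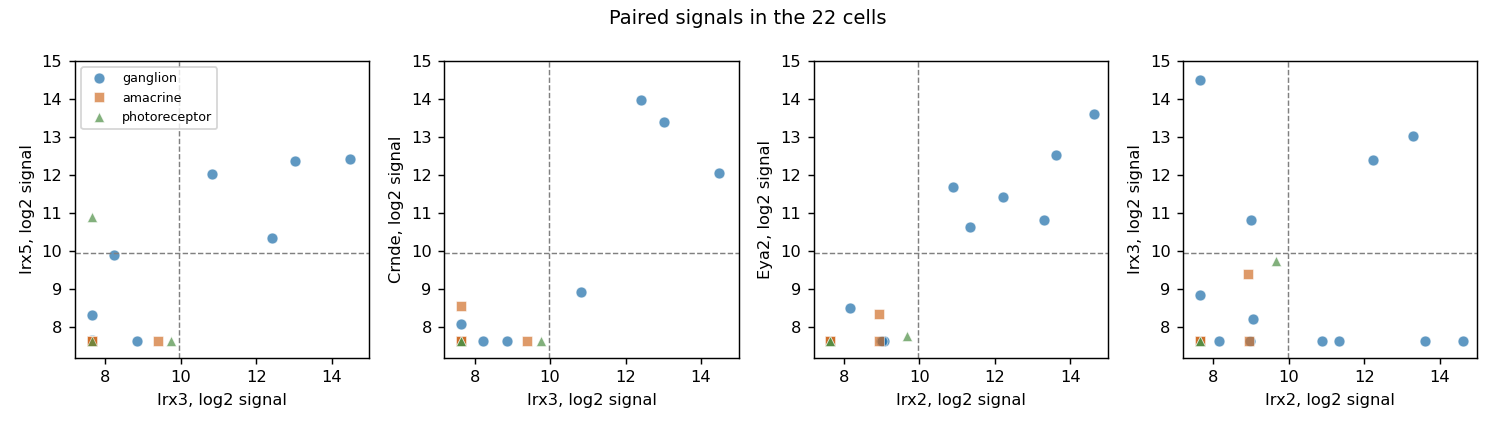
Log2 signals (signals under 200 raised to 200) of 4 pairs of genes in the 22 cells, with ganglion cells as circles, amacrine cells as squares and photoreceptors as triangles, and dashed lines at a signal of 1000. Irx3 and Irx5 are detected together in 4 ganglion cells, 3 of them with Crnde, and photoreceptor H1 of P0 holds Irx5 without Irx3. Irx2 and Eya2 are detected in the same 6 cells, and Irx2 and Irx3 share 2 of the 8 cells with either.

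Pairs of members were compared over cells as a description, since the values share a floor, at which many of them lie, and each cell's amplification. Irx3 and Irx5, which follow each other in the chromosome 8 cluster, had a Pearson correlation of 0.79 over 22 cells and 0.90 over the 13 ganglion cells. By this measure Irx5 ranked 6 among the 7183 other tested genes in its likeness to Irx3 over 22 cells, and Irx3 ranked 4 in its likeness to Irx5. With the 2 cells farthest from the median of Irx3 left out, the correlations were 0.57 and 0.79. Irx6, of the same cluster, was at 0.44 with Irx5 and 0.33 with Irx3 over 22 cells. Irx2, of the other cluster, was at 0.19 with Irx3, 0.10 with Irx5 and 0.06 with Irx6, and over ganglion cells alone at -0.02, -0.06 and -0.18.

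The gene most like Irx2 was Eya2, which encodes a phosphatase and coactivator that works with homeodomain factors of the sine oculis family. The correlation was 0.93 over 22 cells and 0.93 over the 13 ganglion cells, and the rank was 1 in both. Eya2 was detected in the same 6 cells as Irx2, and it was the only tested gene with that set of cells, out of 649 others detected in 6 cells. Its signals were 1796 in F3 and 2781 in F6 of E12.5, 5940 in A3 of E13.5, 3323 in E1 of E14.5, and 12633 in C7 and 1582 in B5 of E15.5. Both genes were highest in C7 and next in A3 of E13.5. In the 7 other ganglion cells Eya2 lay between 9.0 and 366, and in amacrine cells and photoreceptors between 7.3 and 325. The match of cells depended on the threshold. At 500, Irx2 was also detected in E4 of E12.5, in C6 and F1 of P0 and in the adult rod, where Eya2 was not. At 2000, Irx2 was found without Eya2 in F3 and B5, and Eya2 without Irx2 in E1 of E14.5. Over 22 cells Wdr5, a subunit of histone methyltransferase complexes, followed at 0.79, and Pigf, of glycolipid anchor synthesis, at 0.78. Over ganglion cells Wdr5 was at 0.89 and Prdx4, a peroxiredoxin, at 0.88. Over 22 cells the other probe set of Wdr5 was at 0.58. The same probe set of Prdx4 was there at 0.71 and its others at 0.74, 0.74 and 0.0. Wdr5 was detected in 10 cells and Prdx4 in 13, against 6 for Irx2.

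The genes most like Irx3 over 22 cells included Crnde, the noncoding neighbour of Irx5, with a correlation of 0.88 and rank 3. Crnde was at 16122 in F6 and 10730 in F3 of E12.5 and at 4313 in B1 of E15.5, and these 3 cells, all with Irx3 and Irx5, were the only ones in which it was detected. In F1 of P0, the remaining cell with both genes, Crnde was at 485. In the other 18 cells it lay between 8.5 and 376. Its correlation with Irx5 was 0.72. Amplified cDNA holds both strands, so the signal of Crnde does not tell from which strand the transcript came. The genes that ranked before Crnde were Trak1, an adaptor of mitochondrial transport, at 0.92, and Ppp1r2, an inhibitor of protein phosphatase, at 0.89. Both were detected in exactly the 4 cells with Irx3, but only by 1 of 4 probe sets each, the others correlating with Irx3 at -0.05 to 0.56. Over ganglion cells the leading genes were Mrpl51, of the mitochondrial ribosome, at 0.97, Mapk10, a neuronal stress kinase, at 0.95, and Ikzf5, a zinc finger factor, at 0.95. Over all 22 cells the same probe sets were lower, with Mrpl51 at 0.68, Mapk10 at 0.54 and Ikzf5 at 0.70. Other probe sets of Mrpl51 were at 0.05 and 0.10 over 22 cells, those of Mapk10 at 0.49 and 0.03, and that of Ikzf5 at -0.11.

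The genes most like Irx5 were largely those of Irx3. Over 22 cells they were Ppp1r2 at 0.87, Ikzf5 at 0.83 and Bcl2l1, an inhibitor of apoptosis, at 0.83. Over ganglion cells they were Mapk10 at 0.95, Mrpl51 at 0.92 and Ikzf5 at 0.92. Over all 22 cells the same probe sets were at 0.50 for Mapk10 and 0.73 for Mrpl51. Other probe sets were there at 0.29, 0.05 and 0.31 for Ppp1r2 and at -0.06 for Ikzf5. Those of Bcl2l1 were at 0.85, 0.63 and -0.16, those of Mapk10 at 0.41 and -0.12, and those of Mrpl51 at -0.18 and -0.13. The genes most like Irx6 over 22 cells were 2410004B18Rik at 0.93, Smyd5, a methyltransferase, at 0.91, and Fam222b at 0.90. Each was detected in 3 cells that all held Irx6. The 2 other probe sets of Fam222b were at -0.01 and -0.14, and those of Smyd5 at 0.88 and 0.14. Over ganglion cells the genes most like Irx6 were 2410004B18Rik at 0.95, Kcns2, a potassium channel subunit, at 0.92, and Gaa, the lysosomal alpha-glucosidase, at 0.92. Over all 22 cells the same probe set of Kcns2 was at 0.89 and that of Gaa at 0.39. Their other probe sets were at 0.0 for Kcns2 and 0.33 for Gaa. Gaa was detected in 7 cells and was highest in the adult rod, where Irx6 was under the floor. These lists are the extremes of 7183 genes compared, each resting on the few cells in which a member was detected.

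Ganglion cell factors were set beside the combinations. Ebf3, a factor of ganglion cell development, was detected in 13 of 13 ganglion cells, with and without an Iroquois gene. Pou4f1, a POU-domain factor of ganglion cells, was detected in 7 of them, of which 5 held an Iroquois gene, and was not detected in 6, of which 5 did. Isl1, a LIM homeodomain factor, was detected in 10, of which 7 held an Iroquois gene, and not in 3, of which 3 did. Those without Isl1 were A3 of E13.5, with Irx2, A3 of P0, with Irx6, and F1 of P0, with Irx3, Irx5 and Irx6, where Isl1 was at log2 9.93 and so just under the threshold. Pou4f3, another POU-domain factor, was detected in F3 of E12.5, with 4 Iroquois genes, and in D8 of E14.5, with none. Irx2 alone was found with Pou4f1 in A3 of E13.5 and B5 of E15.5 and without it in E1 of E14.5 and C7 of E15.5.

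Other genes of the pathway were taken from lists. Of 12 TALE homeobox genes outside the family, relatives that include the Meis and Pbx partners of other homeodomain factors, 11 were measured and 7 tested, and 0 passed in limma in either contrast. At an unadjusted p under 0.05 there were 0 of 7 between ganglion and amacrine cells (3.94% of all tested genes) and 1 of 7 for photoreceptors (12.2%). With gene-wise variances 0 passed in either contrast. The median ganglion minus amacrine difference of the 7 was -0.18, with Pbx3 at 1.14 ± 1.30, Pknox1 at -0.82 ± 0.96, Meis1 at 0.65 ± 1.46 and Meis3 at -0.32 ± 1.47. Meis1 was detected in 8 of 13 ganglion, 3 of 6 amacrine and 2 of 3 photoreceptor cells, and Meis3 in 9, 4 and 1. Meis1 and Meis3 were thus found in all 3 types. Pbx3 was detected in 6, 2 and 0 and Pknox1 in 2, 1 and 0, so neither was detected in a photoreceptor.

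Of 17 genes near the clusters, 15 were measured and 9 tested. In the ganglion minus amacrine contrast 0 passed in limma, 0 had an unadjusted p under 0.05 and 0 passed with gene-wise variances (an ordinary linear model), with a median of -0.12. The largest difference was that of Lpcat1, a lysophospholipid acyltransferase encoded on chromosome 13, at 2.56 ± 1.47. Ice1, of a complex in small RNA gene transcription, was at -1.76 ± 1.42, Chd9, a chromatin remodeller, at -1.51 ± 1.39, and Mrpl36, of the mitochondrial ribosome, at -1.48 ± 1.41. In the photoreceptor contrast 1 of the 9, Lpcat1, passed in limma (2.12% of all tested genes) and 1 had an unadjusted p under 0.05 (12.2%). Lpcat1 was higher in photoreceptors (6.15 ± 1.45, adjusted p = 0.003 in limma), with means of 15.26 against 10.38 in ganglion and 7.83 in amacrine cells. It did not pass with gene-wise variances, no filter, the mean over probe sets (2.26), quantile normalization (4.66) or the median over cells (6.31), nor without the adult rod (3.16) or amacrine cell J6 (6.15). Fto, the gene before Irx3 on chromosome 8, was detected in 13 cells, of which 6 were among the 7 with a gene of that cluster. Mmp2, a matrix metalloproteinase and the gene after Irx6, was detected in 3 cells, 2 of them among those 7. Adamts16, a metalloproteinase gene before Irx1, was detected in none.

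Signalling genes tied to the family in neural patterning numbered 22, of which 21 were measured and 9 tested. None of the 9 passed in limma in either contrast. At an unadjusted p under 0.05 there were 0 of 9 between ganglion and amacrine cells (3.94% of all tested genes) and 1 of 9 for photoreceptors (12.2%). With gene-wise variances 0 of the 9 passed. Their median difference between ganglion and amacrine cells was 0.48. Bmp7, a bone morphogenetic protein, was at 2.52 ± 1.33 and was detected in 6 ganglion and 0 amacrine cells. Smad5, a transducer of such signals, was at -1.10 ± 1.40, Notch1 at 0.70 ± 1.24 and its ligand Dll1 at 0.64 ± 0.83. Shh, Gli1, Bmp4, Fgf8 and 8 others did not pass the filter.

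Of 21 ganglion cell factors, 19 were measured and 11 tested, with a median ganglion minus amacrine difference of 1.41. In that contrast 1 of the 11 passed in limma (0.0696% of all tested genes) and 3 had an unadjusted p under 0.05 (3.94%). With gene-wise variances 1 of the 11 passed. Ebf3 passed in limma (6.52 ± 1.47, adjusted p = 0.0334), and Pou4f1 (3.26 ± 1.40), Sox11 (2.94 ± 1.44) and Eya2 (2.14 ± 1.26) did not. Its difference stayed between 6.36 and 6.69 in 28 fits that each left out 1 cell or sample, but it passed in 17 of them. It was lost without the only cell of E13.5, B1 or B5 of E15.5, amacrine cell J6, or either P0 photoreceptor, and without the E12.5, E14.5, E15.5 or P0 ganglion sample or the P0 amacrine sample, with adjusted p in limma of up to 0.956. It was also lost with a floor of 500 (adjusted p = 0.113 in limma), the mean over probe sets (0.10) and the median over cells (0.0929). This list may overlap the genes by which the cells were named, so its direction is not independent evidence. In the photoreceptor contrast 1 of the 11 passed in limma (2.12% of all tested genes) and 4 had an unadjusted p under 0.05 (12.2%). With gene-wise variances 1 passed there, a gene other than Sox4. The limma call was Sox4, a factor of immature neurons, which was lower (-5.20 ± 1.26, adjusted p = 0.00448 in limma). It did not pass without photoreceptor E1 of P0 (-3.39), amacrine cell J6 (-5.42) or the P0 amacrine sample (-4.97), nor with no filter or with gene-wise variances, and it did not enter the test with the mean over probe sets. Of 15 bipolar cell genes, 12 were measured and only Isl1, Otx2 and Prkca tested. None of the 3 passed in limma in either contrast, and 0 passed with gene-wise variances. At an unadjusted p under 0.05 there were 0 of 3 in the first contrast (3.94% of all genes) and 2 of 3 in the photoreceptor contrast (12.2% of all genes). Their ganglion minus amacrine differences were -0.80 ± 1.48 for Isl1, 0.46 ± 0.99 for Otx2, a homeodomain factor of photoreceptors and bipolar cells, and -0.22 ± 0.67 for Prkca.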

How the data were processed

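The deposited values are signal intensity on a linear scale, computed by the authors with MAS5 per the labels, without detection calls. Array annotation is from GEO's platform table, and the scanner, its settings and the MAS5 version are not stated in any source read here. In 21 of 22 arrays the 2% trimmed mean was 500. P0 amacrine cell B1, at 18.11, was multiplied up to that target. Of 45101 probe sets, 34958 list 1 gene symbol, 932 several and 9211 none, and 34754 matched the RefSeq table (GRCm38.p6), which was used for names, gene order and promoters. Signals were floored at 200 and log2 transformed, and the probe set with the highest mean stood for each of 18194 genes. The 7184 genes at 1000 or more in at least 3 cells were tested.

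The log2 values of cells of a type and stage were averaged into 9 samples, since no animal is named. Type means were fitted with limma 3.58.1 in R 4.3.3 (eBayes with trend, 6 residual degrees of freedom, prior degrees of freedom estimated as infinite, so standard errors come from the trend), with Benjamini-Hochberg adjustment at 0.05. The p-values thus rest on a variance shared by genes of like mean signal, estimated from the spread between these samples, and not on each gene's own spread. The samples differ in stage, and type is partly confounded with stage. The number of arrays limits the precision. The fit was tested on simulated data with an added shift far larger than any fitted Iroquois difference. Its power at differences of the size of the Iroquois ones was not tested. The members and lists were chosen with earlier results of these data known. Named genes are the members, the 3 genes with the highest Pearson correlation to each tested member over 22 and over 13 cells, and from each list the members that passed and the 4 largest ganglion minus amacrine differences. Genes named for their place beside the clusters or for their roles in a list were chosen after their values were seen. Alternatives covered the floor, detection threshold, probe set summary, filter, scaling, variance model, cell summary and leaving out each cell or sample.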

Additional observations from a re-analysis of the deposited data

Results flagged for a closer look

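Within groups of 4 or 5, 12 sets of log2 values of an Iroquois gene were not all equal and were examined for a single value far from the rest, and 5 had one. Chance gives about 1 in 20, and values at the floor of 7.64 make such gaps more frequent. In the 4 ganglion cells of P0, Irx5 was at 12.04 in F1 and Irx4 at 8.68 in C6. Of the 5 stage means of ganglion cells, Irx4 was at 9.01 at E12.5. In the 5 amacrine cells of P0, Irx2 was at 8.94 in D1 and Irx6 at 7.69 in B1, the rescaled array, both with signals under 1000.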

How the results depend on the processing

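None of the 4 tested members passed in limma under any alternative run. For ganglion minus amacrine, the number of genes passing was 5, and 1 with a floor of 500, 1 with the mean over probe sets, 31 with no filter, 10 after quantile normalization, 8 with gene-wise variances and 0 with the median over cells (264 at an unadjusted p under 0.05), and it ran from 0 to 9 with a cell or sample left out, with 0 without the P0 ganglion sample (268 unadjusted) or the P0 amacrine sample (257 unadjusted). For photoreceptors it was 152, and 44 with the mean over probe sets, 56 with no filter, 51 with gene-wise variances and 47 with the median over cells, and it ran from 45 without amacrine cell J6 to 682 without the P0 photoreceptors. The cause was not tested. In the first contrast leaving out a cell or sample gave ranges of 1.69 to 2.98 for Irx2, -0.37 to 1.39 for Irx3, 0.72 to 1.53 for Irx5 and 1.03 to 1.56 for Irx6. Of the fits made, only that of Irx3 without the P0 amacrine sample turned. Irx6 did not enter the fits without the E12.5 or the P0 ganglion sample, the stages at which it was detected. Irx3 did not enter the fit without the E12.5 ganglion sample. In both contrasts their ranges thus rest on 26 fits for Irx6 and 27 for Irx3, against 28 for the others. In the photoreceptor contrast the ranges were -1.97 to 0.05 for Irx2 (0.05 without the P0 photoreceptors), -1.14 to 0.97 for Irx3, -0.61 to 1.02 for Irx5 and -0.79 to -0.52 for Irx6, and Irx3 was at 0.08 with the median over cells. Fits without the adult rod, amacrine cell J6, the P0 photoreceptor sample or the P0 amacrine sample leave 1 sample in a group, which is then assumed to vary like the others, and in the last 2 that sample is a single cell. Chosen after seeing the data, other floors, quantile normalization and leaving out each cell kept the correlation over 22 cells between 0.72 and 0.87 for Irx3 with Irx5, 0.85 and 0.95 for Irx2 with Eya2, and 0.81 and 0.90 for Irx3 with Crnde. No paired analysis was possible because the labels give no replicate numbers that groups share.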
